A study of Mus musculus with 9 samples.

Results

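The genes described here are 10 antimicrobial and inflammation-linked secreted proteins of the mouse gut: the regenerating-family lectins Reg3b, Reg3g and Reg4, the siderophore-binding protein Lcn2, the serum amyloid A genes Saa1, Saa2 and Saa3, the goblet cell products Retnlb and Ang4, and the scavenger-receptor glycoprotein Dmbt1. They were taken by symbol from the expression table of 35315 genes, and all 10 were found and passed the filter for testing. Bulk RNA was sequenced from the colon of wild-type C57BL/6J mice aged 8 weeks, in 3 groups of 3 libraries. Mice of the GsMTx4 group drank 2.5% dextran sulfate sodium (DSS) over 7 days and were injected in a vein with GsMTx4 at 10 mg/kg on days 2, 4 and 6. Mice of the DSS group drank DSS likewise and, per the series' design text, were injected with solvent on those days. Mice of the Control group drank normal water and no injection is listed for them, so the effects of DSS and of solvent injection cannot be told apart in DSS against Control. DSS, a sulfated polysaccharide, damages the lining of the colon and produces colitis, and GsMTx4, a peptide from spider venom, blocks mechanically gated cation channels such as Piezo1. Nothing in the labels says whether the 3 libraries of each group are separate mice, and p-values then measure only how far these libraries spread, which may be technical.

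The gut epithelium releases these proteins into the lumen and mucus, where many bind or kill bacteria. Reg3b and Reg3g are induced through interleukin-22 and STAT3, Lcn2 and the Saa genes through interleukin-1, interleukin-6 and the factors NF-kB and C/EBP, and Retnlb through interleukin-4 and interleukin-13 acting on the receptor chain Il4ra. In colitis such genes are commonly read as signs of an epithelium facing bacteria. In whole colon a transcript can come from more than 1 cell type: neutrophils also make Lcn2, and outside the gut hepatocytes are the main source of Saa1 and Saa2 in the acute-phase response. In bulk RNA, fewer cells of a type and less RNA per cell cannot be told apart.

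The 3 Saa genes lie in one cluster on chromosome 7 of GRCm38 (GENCODE M21), with Saa3 at chr7:46711998-46715700 and Saa1 at chr7:46740497-46742980 on the minus strand and Saa2 at chr7:46751790-46754313 on the plus strand. Dmbt1 lies farther along the same chromosome at chr7:131032053-131121630. Reg3b at chr6:78370657-78373466 on the plus strand and Reg3g at chr6:78466269-78468872 on the minus strand share chromosome 6, while Reg4 is on chromosome 3 at chr3:98222156-98236748. Lcn2 lies at chr2:32384633-32388252, Retnlb at chr16:48816856-48818892 and Ang4 at chr14:51763878-51773590. Promoter sequences of 300 bases (250 before the start and 50 after it, 5′ to 3′ on the strand of the gene) were available from RefSeq on GRCm38.p6 for 8 of the 10 genes, all but Retnlb and Dmbt1. The promoters of Reg3b and Reg3g are printed because both close relatives were highest in the same library, those of Saa1, Saa2 and Saa3 because Saa3 was called lower with GsMTx4 and Saa1 and Saa2 were not, and that of Reg4 because it was the 1 gene called lower in DSS and higher with GsMTx4. They come from chr6:78370635-78370934 (Reg3b), chr6:78468825-78469124 (Reg3g), chr7:46742931-46743230 (Saa1), chr7:46751583-46751882 (Saa2), chr7:46715627-46715926 (Saa3) and chr3:98221906-98222205 (Reg4). Capitals mark every match, on either strand, to the STAT motif TTCNNNGAA, the C/EBP motif TTGCNNAA, the 10-base NF-kB consensus or the TATA box TATAAA. No 2 matches overlapped.
Reg3b: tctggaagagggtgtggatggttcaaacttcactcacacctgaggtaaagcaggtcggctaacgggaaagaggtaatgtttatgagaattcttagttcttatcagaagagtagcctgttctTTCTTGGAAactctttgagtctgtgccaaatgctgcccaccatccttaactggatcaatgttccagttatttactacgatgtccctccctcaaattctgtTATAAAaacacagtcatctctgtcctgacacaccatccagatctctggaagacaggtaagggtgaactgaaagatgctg
Reg3g: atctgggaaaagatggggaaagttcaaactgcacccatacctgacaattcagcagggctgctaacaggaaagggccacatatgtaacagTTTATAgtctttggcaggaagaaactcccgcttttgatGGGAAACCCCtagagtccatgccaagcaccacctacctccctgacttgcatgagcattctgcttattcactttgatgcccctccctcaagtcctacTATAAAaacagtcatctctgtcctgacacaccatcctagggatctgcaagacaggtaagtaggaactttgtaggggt
Saa1: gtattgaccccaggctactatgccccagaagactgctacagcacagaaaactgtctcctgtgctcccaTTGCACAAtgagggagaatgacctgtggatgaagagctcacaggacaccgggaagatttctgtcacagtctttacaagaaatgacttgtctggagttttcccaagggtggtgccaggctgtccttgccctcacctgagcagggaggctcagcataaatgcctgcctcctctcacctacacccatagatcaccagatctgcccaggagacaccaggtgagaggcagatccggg
Saa2: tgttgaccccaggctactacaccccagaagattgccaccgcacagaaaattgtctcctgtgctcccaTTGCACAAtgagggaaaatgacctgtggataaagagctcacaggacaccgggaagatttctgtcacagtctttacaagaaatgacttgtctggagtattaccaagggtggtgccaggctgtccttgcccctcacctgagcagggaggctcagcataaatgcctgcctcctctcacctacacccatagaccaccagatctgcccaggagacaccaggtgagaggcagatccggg
Saa3: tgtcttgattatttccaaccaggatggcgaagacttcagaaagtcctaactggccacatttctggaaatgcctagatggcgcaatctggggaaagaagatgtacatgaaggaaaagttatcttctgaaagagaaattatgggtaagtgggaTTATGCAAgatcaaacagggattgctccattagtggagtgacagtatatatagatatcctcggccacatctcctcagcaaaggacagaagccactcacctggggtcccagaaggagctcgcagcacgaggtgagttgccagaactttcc
Reg4: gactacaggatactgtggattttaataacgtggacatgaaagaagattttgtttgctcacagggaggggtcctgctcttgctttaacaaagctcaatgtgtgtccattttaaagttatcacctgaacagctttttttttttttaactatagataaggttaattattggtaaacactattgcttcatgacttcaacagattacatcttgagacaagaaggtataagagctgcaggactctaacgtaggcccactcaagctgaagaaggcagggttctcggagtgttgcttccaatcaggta
Reg3b held a STAT match beginning 129 bases before its start, and Reg3g an NF-kB match beginning 123 bases before it. TATA matches began 29 bases before the start in Reg3b and 27 bases before it in Reg3g, which had another on the reverse strand beginning 161 bases before it. A C/EBP match began 182 bases before the start in Saa1, 183 bases before it in Saa2, 99 bases before it in Saa3 and 216 bases before it in Lcn2, and Ang4 had a STAT match beginning 192 bases before its start. The Reg4 window held none of the 4 motifs. Of all 32851 promoters in the RefSeq table, 8.30% held the STAT motif, 10.8% the C/EBP motif, 8.46% the NF-kB motif and 13.6% the TATA box. The Saa1 and Saa2 promoters were 95.3% identical and the Reg3b and Reg3g promoters 68.6%. Such a match is a description of the letters and not evidence of binding.

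Levels below are FPKM, fragments scaled to transcript length and library size, the unit the authors deposited. The libraries summed to 349125 to 440935 FPKM and had 12830 to 14036 genes at 1 FPKM or more, and all 8 listed colonocyte markers were present in every group. Read counts were not used here. The smallest FPKM values of single-transcript genes piled up at a fixed step in each library, which would put the depth at 15100000 to 21500000 fragments if 1 step is 1 fragment. Fold changes are log2 differences on the log2(FPKM + 1) scale ± SE, which understates the change of low genes, and adjusted p-values are from limma over all 14360 tested genes with the Benjamini-Hochberg method. Genes with an adjusted p under 0.05 are called higher or lower, or said to have passed.

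Against Control, 6 of the 10 genes rose in DSS colon, Retnlb, Lcn2, Reg3g, Saa3, Dmbt1 and Saa1, and 1 fell, Reg4. Saa2, Ang4 and Reg3b did not pass. Reg3g reached 1 FPKM in DSS libraries alone and so had to differ to be tested, and among the other 9 genes 5 rose and 1 fell. Over all tested genes 6.41% were called higher and 10.7% lower in this comparison. The higher share of the calls was 37.4% as deposited, 27.5% after rescaling every library to one sum (TPM), 58.6% with median-of-ratios scaling and 48.4% with quantile normalization, and under these scalings the median over all genes shifted by -0.11, 0.14 and 0.10 on the log2 scale. Each of the 7 passing genes kept its direction and its call under all 3 scalings. The median log2 fold change was 2.45 over the 10 genes and -0.17 over all tested genes. The 10 genes were chosen with earlier results of these data known, so the counts and medians describe them and do not test the set.

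With GsMTx4 added, against DSS alone, 4 of the 10 genes fell, Retnlb, Lcn2, Reg3g and Saa3, and 1 rose, Reg4. Saa1, Saa2, Ang4, Dmbt1 and Reg3b did not pass. Without Reg3g, which the filter admitted through DSS alone, 3 of the other 9 fell and 1 rose. Over all tested genes 6.66% were called higher and 5.62% lower. The median log2 fold change was -1.34 over the 10 genes and 0.07 over all genes. As above, these figures describe genes chosen with earlier results known. This comparison shares the DSS libraries with DSS against Control, so each comparison's own values are set side by side below. Between GsMTx4 and Control limma called none of the 10 genes, while 4 had an unadjusted p under 0.05: Saa3, Dmbt1, Saa2 and Saa1. Over all genes 0.188% were called higher and 0.0487% lower in that comparison, and 1456 genes had an unadjusted p under 0.05.

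**Figure D1:**
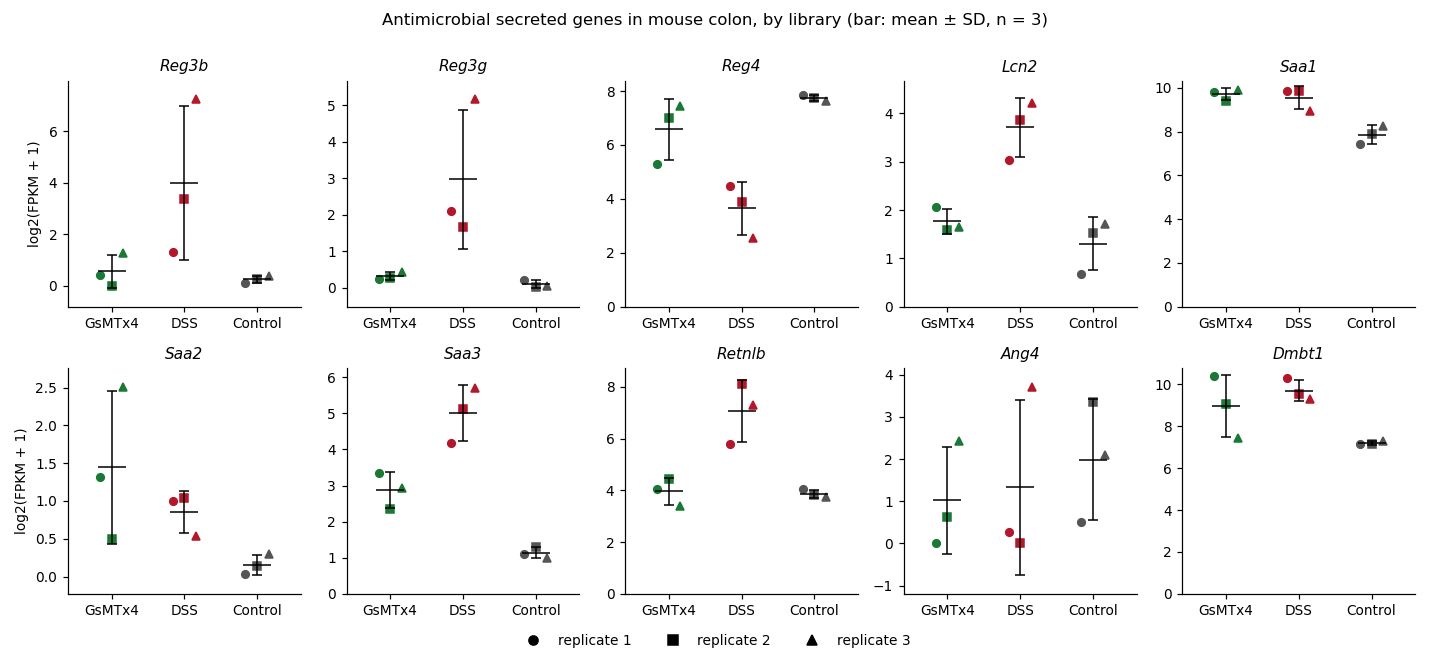
Level of each of the 10 genes as log2(FPKM + 1) in every library of the GsMTx4, DSS and Control groups. Markers are libraries by replicate number, horizontal bars are group means and vertical bars ± SD (n = 3 each). Retnlb, Lcn2, Saa3, Reg3g and, by a narrow margin, Reg3b are higher in all 3 DSS libraries than in any other. Reg4 is lower in all 3, and the Saa1 ranges of GsMTx4 and DSS overlap above Control.

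Reg3b and Reg3g are lectins secreted by the intestinal epithelium, and Reg3g is known for killing Gram-positive bacteria through their peptidoglycan. Reg3b was listed at 0.349, 0 and 1.40 FPKM with GsMTx4, at 1.52, 9.45 and 149 FPKM with DSS, and at 0.0865, 0.200 and 0.288 FPKM in Control. Reg3g was at 0.190, 0.214 and 0.363 FPKM with GsMTx4, at 3.30, 2.18 and 34.8 FPKM with DSS, and at 0.168, 0.0222 and 0.0455 FPKM in Control. Both genes were above every other library in the 3 DSS libraries, and DSS 3 stood far above the other two DSS libraries in both. For Reg3b the lowest DSS library (1.52 FPKM) was close to the highest GsMTx4 library (1.40 FPKM). In the approximate fragment steps described above, taken over each gene's longest coding transcript, GsMTx4 held 0 to 16.5 steps of Reg3b and 2.51 to 4.22 steps of Reg3g. Control held 1.33 to 4.65 steps of Reg3b and 0.36 to 2.54 steps of Reg3g, so that most of these values rest on few fragments. Values between 0 and 1 step cannot be whole fragments, so the steps are only a rough scale.

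Reg3g passed the filter on low values through the 3 DSS libraries alone, so its tests are given with that limit: in DSS against Control it rose by 2.87 ± 0.74 (adjusted p = 0.0295), and in GsMTx4 against DSS it fell by 2.65 ± 0.74 (adjusted p = 0.0477). Reg3b passed the filter through these and GsMTx4 3, and Saa2 through 2 GsMTx4 libraries and 1 DSS library. The Reg3g rise was 1.78 without DSS 3 (adjusted p = 0.00251) and 3.53 without DSS 2 (adjusted p = 0.0214). It did not pass without Control 1, 2 or 3 (adjusted p = 0.0734, 0.0884 and 0.0830), with no filter on low values (adjusted p = 0.0849) or in a fit of the compared groups only (adjusted p = 0.0558). The GsMTx4 against DSS difference was -1.56 without DSS 3 (adjusted p = 0.00731) and -3.31 without DSS 2 (adjusted p = 0.0306). It kept its call in 9 of 18 alternatives, and those in which it did not pass include leaving out any 1 of the Control libraries (adjusted p = 0.0704 to 0.0750) or GsMTx4 libraries (adjusted p = 0.0854 to 0.130), no filter (adjusted p = 0.127) and the compared groups only (adjusted p = 0.112).

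For Reg3b the log2 difference was 3.73 ± 1.17 in DSS against Control (adjusted p = 0.0571) and -3.42 ± 1.17 in GsMTx4 against DSS (adjusted p = 0.0879), neither past the threshold. The first stayed short of the threshold in 14 of 19 alternatives and passed in the rest (adjusted p = 0.0121 to 0.144 over all 19). Those in which it passed include leaving out DSS 1 (5.06, adjusted p = 0.0121) or DSS 3 (2.11, adjusted p = 0.0474). The other stayed short in 18 of 19 and passed without DSS 1 (-4.74, adjusted p = 0.0201). The pair did not keep a constant proportion, since Reg3g over Reg3b was 2.17 in DSS 1 and 0.231 and 0.233 in DSS 2 and DSS 3. Their coding sequences were 76% identical, and no stretch of 100 bases was shared. The other regenerating genes Reg1, Reg2, Reg3a and Reg3d together reached at most 0.101 FPKM in any library, and none was tested.

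Reg4, a lectin of the same family that marks deep crypt secretory cells of the mouse colon, ran the other way. It stood at 38.4, 127 and 174 FPKM with GsMTx4, at 21.5, 13.9 and 4.91 FPKM with DSS, and at 229.8, 215 and 196 FPKM in Control. The 3 groups did not overlap at all: every DSS library was below every GsMTx4 library, and every GsMTx4 library was below every Control library. In DSS against Control Reg4 fell by 4.09 ± 0.59 (adjusted p = 0.00312), with a Control mean 15.9-fold the DSS mean, and in GsMTx4 against DSS it rose by 2.93 ± 0.59 (adjusted p = 0.0156). The rise did not pass without GsMTx4 2 (2.72, adjusted p = 0.0625) and was 3.58 without GsMTx4 1 (adjusted p = 0.00614). GsMTx4 against Control gave -1.16 ± 0.59 (adjusted p = 0.550). DSS 3, with the lowest Reg4, had the highest Reg3b, Reg3g, Lcn2 and Saa3.

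Few goblet and deep crypt markers passed beside Reg4. Of 10 tested, 1 fell and none rose in DSS against Control, and none passed in GsMTx4 against DSS, while 2 and 1 of them had an unadjusted p under 0.05. Over all 14360 tested genes 5014 and 4324 had such a p in these comparisons. Called higher and lower were 6.41% and 10.7% in DSS against Control, and 6.66% and 5.62% in GsMTx4 against DSS. The summed level of the markers ran from 3250 to 4597 FPKM with GsMTx4, from 3416 to 7123 FPKM with DSS and from 4500 to 6294 FPKM in Control. The marker that passed was Atoh1, the transcription factor that commits crypt cells to secretory fates, which fell by 1.53 ± 0.23 (adjusted p = 0.00409). Its mean was 18.8 ± 4.74 FPKM with GsMTx4, 10.96 ± 2.89 FPKM with DSS and 33.0 ± 4.96 FPKM in Control (SD, n = 3 each).

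Lcn2 binds the iron-carrying siderophore enterobactin and so starves bacteria of iron. Its level was 3.18, 1.99 and 2.13 FPKM with GsMTx4, 7.22, 13.6 and 17.6 FPKM with DSS, and 0.599, 1.87 and 2.27 FPKM in Control. All 3 DSS libraries lay above all others, and the GsMTx4 and Control ranges overlapped. Lcn2 rose in DSS by 2.41 ± 0.34 (adjusted p = 0.00311), 8.11-fold in the means, and in GsMTx4 against DSS it fell by 1.95 ± 0.34 (adjusted p = 0.0102), with the DSS mean 5.27-fold the GsMTx4 mean. GsMTx4 against Control gave 0.46 ± 0.34 (adjusted p = 0.692). Both calls were kept in all 19 alternative analyses. Over all tested genes 6.41% rose in DSS and 5.62% fell with GsMTx4 against DSS. Markers of neutrophils, another source of Lcn2, moved in the same directions as Lcn2. Of 5 tested of 10 listed, 4 rose in DSS and 3 fell with GsMTx4. Their summed level was 8.35 to 51.4 FPKM with GsMTx4, 81.0 to 313 FPKM with DSS and 2.29 to 3.22 FPKM in Control, with Ngp at 0 in GsMTx4 and Ngp and Camp at 0 in Control. Their part in the Lcn2 result was not tested.

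The Saa genes encode serum amyloid A proteins, which carry retinol and lipid and are released in the acute-phase response. The 3 genes separated. Saa3, the form made mainly outside the liver, was at 9.17, 4.14 and 6.66 FPKM with GsMTx4, at 17.2, 34.0 and 51.6 FPKM with DSS, and at 1.15, 1.47 and 1.005 FPKM in Control. The groups did not overlap, with DSS highest, GsMTx4 between and Control lowest. Saa3 rose in DSS by 3.87 ± 0.37 (adjusted p = 0.000706), and its mean was 28.4-fold that of Control. In GsMTx4 against DSS it fell by 2.13 ± 0.37 (adjusted p = 0.00946), and GsMTx4 against Control gave 1.74 ± 0.37 (adjusted p = 0.187). Both calls were kept in all 19 alternatives.

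Saa1 was the most abundant of the 3. It was at 907.9, 667 and 954 FPKM with GsMTx4, at 913, 928 and 498 FPKM with DSS, and at 169.5, 239 and 307 FPKM in Control. GsMTx4 and DSS libraries overlapped, and all 6 lay above every Control library. Saa1 rose in DSS by 1.69 ± 0.31 (adjusted p = 0.00867), 3.27-fold in the means. GsMTx4 against DSS differed by 0.15 ± 0.31 (adjusted p = 0.780), and GsMTx4 against Control by 1.84 ± 0.31 (adjusted p = 0.0765). Without DSS 3 the GsMTx4 against DSS value was -0.14 and GsMTx4 against Control passed (adjusted p = 0.0435).

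Saa2 stayed low throughout, at 1.497, 0.412 and 4.71 FPKM with GsMTx4, 0.995, 1.05 and 0.453 FPKM with DSS, and 0.0196, 0.104 and 0.226 FPKM in Control. GsMTx4 and DSS overlapped, and Control was below both, at 0.25 to 3.04 approximate steps on the same rough scale. The log2 difference was 0.70 ± 0.42 in DSS against Control (adjusted p = 0.262) and 0.59 ± 0.42 in GsMTx4 against DSS (adjusted p = 0.384). GsMTx4 against Control gave 1.29 ± 0.42 (adjusted p = 0.355). In the means DSS was 7.14-fold Control and GsMTx4 was 18.9-fold Control, and the Control values rest on few fragments. Over the alternatives the DSS against Control value ran from 0.61 to 3.09. It kept its side of the threshold in 17 of 18, with a smallest adjusted p of 0.0392. The coding sequences of Saa1 and Saa2 were 95.1% identical, and how the counting divided fragments between them is not given in the sources used here, so the low Saa2 level beside Saa1 is uncertain. Saa3 shared 75.7% of the Saa1 coding sequence. No pair of the 3 shared a stretch of 100 bases in the transcripts compared.

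The proportion of Saa1 to Saa3 was taken within each library. Saa1 over Saa3 was 99.0, 161 and 143 with GsMTx4, 53.2, 27.3 and 9.65 with DSS, and 148, 163 and 306 in Control. Each DSS library had a lower ratio than any other library, and the GsMTx4 and Control ranges overlapped. Markers of cells known as sources of Saa genes varied beside these values. Over all tested genes 6.41% were called higher and 10.7% lower in DSS against Control. In GsMTx4 against DSS these shares were 6.66% and 5.62%, and in GsMTx4 against Control 0.188% and 0.0487%. Hepatocyte markers summed to 70.0 to 94.8 FPKM with GsMTx4, 20.4 to 27.5 FPKM with DSS and 33.5 to 47.9 FPKM in Control. Of 14 listed and 12 tested, 11 rose with GsMTx4 against DSS, 9 rose with GsMTx4 against Control, and 2 fell in DSS against Control. Of these 12, 7 reached 1 FPKM in GsMTx4 libraries alone and so could be tested only because they were high there. Alb, the albumin gene, was at 13.2 to 14.6 FPKM with GsMTx4, 0.0719 to 0.479 FPKM with DSS and 0.753 to 1.22 FPKM in Control. Ahsg and Apoc3 were at 0 in all DSS libraries, and Fga, Fgb, Fgg, Apoc3, Mup3 and Serpina1a in all Control libraries. Adipocyte markers summed to 3.94 to 7.76 FPKM with GsMTx4, 15.3 to 39.8 FPKM with DSS and 2.90 to 10.99 FPKM in Control, with 2 of 3 tested of 6 listed higher in DSS and 2 lower with GsMTx4, and Plin1 and Lep at 0 in Control. Of 7 macrophage markers, 5 rose in DSS and 2 fell with GsMTx4. They summed to 379 to 466, 631 to 749 and 238 to 375 FPKM in GsMTx4, DSS and Control, none at 0. Much of each sum was 1 gene, Lyz2, at 282 to 342, 494 to 593 and 160 to 290 FPKM in that order. Adgre1 overlapped between GsMTx4 (10.6 to 14.5 FPKM) and DSS (10.1 to 12.8 FPKM). Both are named after their values were seen. The part of adipocytes and macrophages in the Saa3 result and of hepatocytes in the Saa1 and Saa2 values of any group was not tested.

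**Figure D2:**
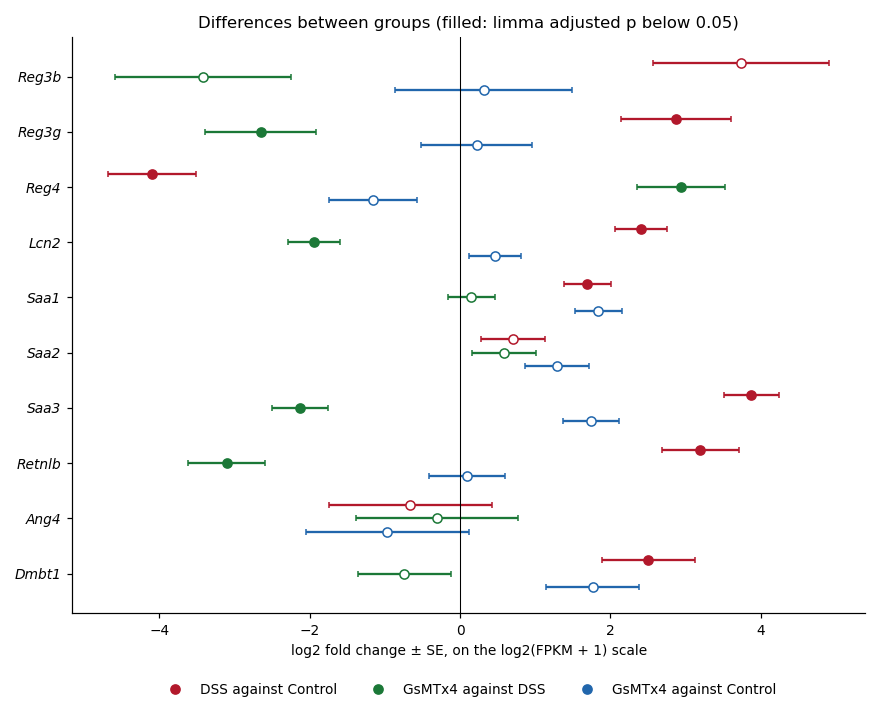
Log2 fold change ± SE (limma, log2(FPKM + 1) scale) of each of the 10 genes in the 3 comparisons of the groups, with filled markers where adjusted p is under 0.05. Retnlb, Lcn2, Reg3g and Saa3 lie above 0 in DSS against Control and below 0 in GsMTx4 against DSS, Reg4 lies the other way, and no marker is filled in GsMTx4 against Control.

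Retnlb is a goblet cell protein of the resistin-like family that kills Gram-negative bacteria. Its level was 15.5, 20.7 and 9.50 FPKM with GsMTx4, 53.8, 277 and 157 FPKM with DSS, and 15.6, 12.98 and 12.4 FPKM in Control. Every DSS library exceeded every other library, and the Control range lay within the GsMTx4 range. Retnlb rose in DSS by 3.20 ± 0.51 (adjusted p = 0.00497), 11.9-fold in the means, and in GsMTx4 against DSS it fell by 3.11 ± 0.51 (adjusted p = 0.00773). GsMTx4 against Control gave 0.09 ± 0.51 (adjusted p = 0.969). Both calls held in all 19 alternatives, and without DSS 1 they were 3.84 and -3.75. The goblet and deep crypt markers beside it are those given above for Reg4, and their part in the Retnlb, Reg4 and Ang4 values was not tested. Its relative Retnlg, which mouse neutrophils express, also rose in DSS by 2.86 ± 0.54 (adjusted p = 0.00926) and with GsMTx4 fell by 2.06 ± 0.54 (adjusted p = 0.0390). The Retnlg fall did not pass without any 1 Control library, DSS 2 or any 1 GsMTx4 library, nor with a pseudocount of 0.01, no filter, a mean FPKM of 5 or the compared groups only, and at a mean FPKM of 5 its rise was not tested either. The coding sequences of the pair were 72.9% identical.

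Ang4 is a ribonuclease of the angiogenin family that mouse Paneth and goblet cells secrete and that acts on bacteria. It was at 0, 0.554 and 4.41 FPKM with GsMTx4, at 0.204, 0 and 12.2 FPKM with DSS, and at 0.432, 9.27 and 3.27 FPKM in Control. High and low libraries occurred in every group, and the 3 ranges overlapped. The log2 differences were -0.66 ± 1.08 in DSS against Control (adjusted p = 0.680), -0.31 ± 1.08 in GsMTx4 against DSS (adjusted p = 0.877) and -0.97 ± 1.08 in GsMTx4 against Control (adjusted p = 0.799). No difference was detectable at this spread. Its relatives Ang and Rnase4 did not pass in any of the comparisons either. Markers of Paneth cells and small intestine summed to 39.5 to 180 FPKM with GsMTx4, 38.5 to 90.5 FPKM with DSS and 68.6 to 112 FPKM in Control. These sums say little of Paneth cells, since Fabp6, on the list for small intestine, alone reached 126 FPKM in GsMTx4 3 and 56.8 FPKM in Control 1. Lyz1 and Itln1 were at most 10.3 and 0.917 FPKM, both in DSS, and Mmp7 was at 0 with GsMTx4. Of 10 listed and 4 tested, 1 rose in DSS, Lyz1, and none fell, and none passed with GsMTx4 against DSS. Over all tested genes 6.41% rose and 10.7% fell in DSS. These markers are named after their values were seen. The part of these cells in the Ang4 values was not tested.

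Dmbt1 is a large mucosal glycoprotein with scavenger receptor domains that binds and aggregates bacteria. Its level was 1371, 529 and 173 FPKM with GsMTx4, 1256, 736 and 633 FPKM with DSS, and 142, 142 and 157 FPKM in Control. Control was tight and lay below all other libraries, and GsMTx4 ran from near Control to above DSS. Dmbt1 rose in DSS by 2.50 ± 0.62 (adjusted p = 0.0260), 5.95-fold in the means. This call did not pass without Control 1, 2 or 3 (adjusted p = 0.0737, 0.0808 and 0.0716), DSS 1 (2.21, 0.0683) or DSS 2 (2.59, 0.0584), nor with no filter on low values (adjusted p = 0.0772). GsMTx4 against DSS gave -0.74 ± 0.62 (adjusted p = 0.456), with -1.46 without GsMTx4 1 and 0.03 without GsMTx4 3. GsMTx4 against Control gave 1.76 ± 0.62 (adjusted p = 0.384).

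The order of levels within a group, which FPKM allows since it is per length, was not the same in the 3 groups. With GsMTx4 the mean levels ran Saa1, Dmbt1, Reg4, Retnlb, Saa3, Lcn2, Saa2, Ang4, Reg3b, Reg3g from high to low, with DSS Dmbt1, Saa1, Retnlb, Reg3b, Saa3, Reg4, Reg3g, Lcn2, Ang4, Saa2, and in Control Saa1, Reg4, Dmbt1, Retnlb, Ang4, Lcn2, Saa3, Reg3b, Saa2, Reg3g. Most neighbours in these orders overlapped in range. The exceptions were Retnlb, Saa3 and Lcn2 below their upper neighbour with GsMTx4, Retnlb with DSS, and Dmbt1, Retnlb, Ang4 and Reg3b in Control. The 10 genes together made up 2347, 1352 and 1329 FPKM with GsMTx4, 2274, 2015 and 1558 FPKM with DSS, and 559, 623 and 680 FPKM in Control. That is 0.671%, 0.381% and 0.301% of all FPKM with GsMTx4, 0.625%, 0.515% and 0.417% with DSS and 0.155%, 0.177% and 0.195% in Control. The sum was higher in all 6 DSS-exposed libraries than in any Control library. Saa1 or Dmbt1 was the largest part of the sum in each DSS-exposed library, and Reg4 was the largest in Control 1.

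**Figure D3:**
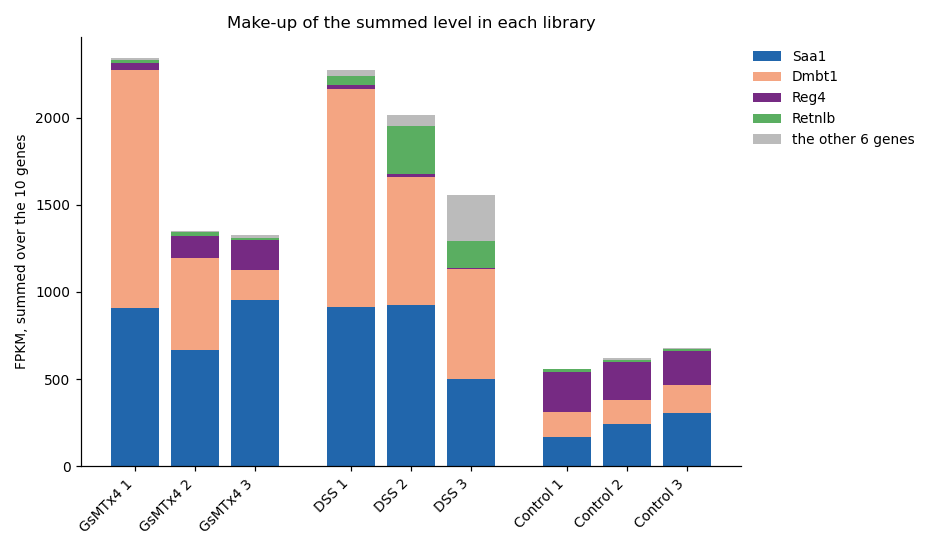
Summed FPKM of the 10 genes in each library, split into Saa1, Dmbt1, Reg4, Retnlb and the other 6 genes, for GsMTx4, DSS and Control. The GsMTx4 libraries reach 1329 to 2347 FPKM, the DSS libraries 1558 to 2274 FPKM and the Control libraries 559 to 680 FPKM, with Saa1 and Dmbt1 filling most of the taller bars and Reg4 a large part of the Control bars.

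Related genes of host defence were counted from lists drawn up for this description, also with earlier results of these data known. Of 21 other secreted or surface antimicrobial genes, 16 were tested. In DSS against Control 8 rose and 2 fell, and with GsMTx4 against DSS 2 rose and 4 fell. Over all tested genes 6.41% were called higher and 10.7% lower in DSS against Control. With GsMTx4 against DSS these shares were 6.66% and 5.62%. The neutrophil calprotectin subunit S100a8 averaged 4.38 ± 5.95 FPKM with GsMTx4, 50.6 ± 28.9 FPKM with DSS and 0.134 ± 0.0586 FPKM in Control. It rose by 5.37 ± 0.66 (adjusted p = 0.00180) and fell by 3.70 ± 0.66 (adjusted p = 0.0108). The partner subunit S100a9, named after its values were seen, rose by 5.59 ± 0.89 (adjusted p = 0.00486). With GsMTx4 against DSS it gave -2.94 ± 0.89 and did not pass (adjusted p = 0.0613). The protease inhibitor Slpi averaged 61.4 ± 33.8, 311 ± 188 and 23.9 ± 10.3 FPKM in GsMTx4, DSS and Control, rose by 3.57 ± 0.48 (adjusted p = 0.00245) and fell by 2.29 ± 0.48 (adjusted p = 0.0182). The mucosal chemokine Ccl28 averaged 39.2 ± 3.72 FPKM with GsMTx4, 23.6 ± 1.27 FPKM with DSS and 40.1 ± 4.41 FPKM in Control, fell by 0.73 ± 0.13 (adjusted p = 0.00770) and rose with GsMTx4 by 0.71 ± 0.13 (adjusted p = 0.0121). The protease-inhibitor-like gene Wfdc2 was the other gene that fell in DSS (-1.03 ± 0.30, adjusted p = 0.0436) and rose with GsMTx4 (1.44 ± 0.30, adjusted p = 0.0176), and the other 2 that fell with GsMTx4 were the iron binder Ltf and the peptidoglycan binder Pglyrp1, these 3 being named after their values were seen. The count of 4 lower with GsMTx4 was 1 without GsMTx4 2, and the count of 2 lower in DSS was 1 without any 1 Control library, DSS 2, DSS 3 or GsMTx4 1, 1 with no filter, and 0 with median-of-ratios scaling. The 2 higher with GsMTx4 were 1 without DSS 3 or with no filter and 0 in the compared groups only, and the 4 lower were 2 with no filter or in the compared groups only.

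Enzymes that make oxidants against bacteria divided. Of 5 tested of 6 listed, 3 rose in DSS (Duox2, Duoxa2 and Nos2) and 1 fell (Nox1). With GsMTx4 against DSS 1 rose, Nox1, and none fell, while 2 of the 5 had an unadjusted p under 0.05. Over all 14360 tested genes 4324 had such a p in that comparison. Called higher and lower over all genes were 6.41% and 10.7% in DSS against Control, and 6.66% and 5.62% in GsMTx4 against DSS. The number of these enzymes that fell was 3 without GsMTx4 1. Duoxa2, which matures the peroxide source Duox2, averaged 53.4 ± 19.2 FPKM with GsMTx4, 92.4 ± 9.13 FPKM with DSS and 13.5 ± 3.75 FPKM in Control. It also passed in GsMTx4 against Control, by 1.88 ± 0.26 (adjusted p = 0.0260), but not without Control 2, Control 3, DSS 2 or GsMTx4 2, nor with a pseudocount of 0.01, no filter, a mean FPKM of 5 or the compared groups only. The epithelial oxidase Nox1 averaged 16.9 ± 13.3, 0.733 ± 0.817 and 19.5 ± 2.32 FPKM in GsMTx4, DSS and Control, and in DSS it fell by 3.66 ± 0.47 (adjusted p = 0.00207).

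Of 11 acute-phase plasma genes 8 were tested. In DSS 6 rose and none fell, and with GsMTx4 against DSS 2 rose and 1 fell. The shares over all tested genes were 6.41% higher and 10.7% lower in DSS, and 6.66% and 5.62% with GsMTx4 against DSS. Lrg1, a glycoprotein made by both liver and inflamed tissue, averaged 34.5 ± 30.9 FPKM with GsMTx4, 229 ± 77.5 FPKM with DSS and 1.67 ± 0.231 FPKM in Control. It rose by 6.37 ± 0.76 (adjusted p = 0.00154) and fell by 3.26 ± 0.76 (adjusted p = 0.0262). The genes that rose with GsMTx4 were the haem carrier Hpx, by 2.39 ± 0.36 (adjusted p = 0.00572), and the plasma glycoprotein Orm1, by 1.78 ± 0.25 (adjusted p = 0.00485). Both reached 1 FPKM in GsMTx4 libraries alone, so the filter admitted them through the group where they are high, and they numbered 1 at a pseudocount of 0.01 and 0 at a mean FPKM of 5. Orm1 was at 1.79 to 4.82 FPKM with GsMTx4, at 0 to 0.120 FPKM with DSS and at 0 in all 3 Control libraries, beside the higher hepatocyte markers of the GsMTx4 libraries. Leaving out 1 library moved these counts: the 6 higher in DSS were 3 without Control 1 and 2 without Control 2, and the 1 lower was 0 without DSS 2, DSS 3 or GsMTx4 2 and 3 without GsMTx4 1, and 0 with no filter or in the compared groups only.

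Over all tested genes 6.41% were called higher and 10.7% lower in DSS, and 6.66% and 5.62% with GsMTx4 against DSS. Of 24 genes listed as inducing cytokines and their receptors, 17 were tested. In DSS 6 rose and 1 fell, and with GsMTx4 against DSS 4 fell and none rose. The 6 were 10 with median-of-ratios scaling and 11 with quantile normalization, and 3 without Control 2 or Control 3, with no filter or at a mean FPKM of 5. The 4 were 2 without any 1 Control library, DSS 3 or GsMTx4 3, with no filter, at a mean FPKM of 5 and in the compared groups only. The 1 that fell in DSS, the interleukin-17 receptor chain Il17rc (-0.62 ± 0.15, adjusted p = 0.0225, named after its value was seen), did not pass without any 1 Control library, DSS 1 or DSS 3, nor with median-of-ratios scaling. Il22, the cytokine that drives Reg3 genes, was at 1.83, 3.63 and 0.120 FPKM with GsMTx4, at 4.66, 6.15 and 7.24 FPKM with DSS, and at 0.205, 0 and 0 FPKM in Control. All DSS libraries were above the rest, and GsMTx4 overlapped Control. Il22 rose by 2.70 ± 0.43 (adjusted p = 0.00486), and GsMTx4 against DSS gave -1.50 ± 0.43 (adjusted p = 0.0515). Il4ra, through which interleukin-4 and interleukin-13 act, averaged 11.7 ± 0.865, 26.8 ± 4.94 and 11.5 ± 0.4996 FPKM in GsMTx4, DSS and Control, rose by 1.14 ± 0.15 (adjusted p = 0.00211) and fell by 1.11 ± 0.15 (adjusted p = 0.00361).

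The other named cytokines varied more. Il1b was at 11.9, 8.09 and 10.7 FPKM with GsMTx4, 8.19, 13.8 and 56.3 FPKM with DSS and 5.81, 4.14 and 4.24 FPKM in Control, with 1.80 ± 0.55 in DSS against Control (adjusted p = 0.0515) and -0.84 ± 0.55 in GsMTx4 against DSS (adjusted p = 0.337). As with Reg3b and Reg3g, its highest value was in DSS 3. Tnf gave 1.15 ± 0.36 (adjusted p = 0.0539) and -0.30 ± 0.36 (adjusted p = 0.607). Il6 and Il17a were too low to be tested, with at most 0.104 and 0.113 FPKM in GsMTx4, 1.35 and 0.398 FPKM in DSS and 0.0986 and 0 FPKM in Control. Il33 rose by 1.98 ± 0.45 (adjusted p = 0.0192) and fell by 1.65 ± 0.45 (adjusted p = 0.0450), and the receptor Il1r1 rose by 1.04 ± 0.29 (adjusted p = 0.0386) and fell by 1.48 ± 0.29 (adjusted p = 0.0147). The fourth receptor or cytokine lower with GsMTx4 was Il6ra, which fell by 0.60 ± 0.16 (adjusted p = 0.0434).

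Among 18 tested signal and transcription factor genes of 19 listed, 3 rose and 1 fell in DSS. With GsMTx4 against DSS 2 fell and none rose. Over all tested genes 6.41% rose and 10.7% fell in DSS, and 6.66% rose and 5.62% fell with GsMTx4 against DSS. Of the listed genes, the number that rose in DSS was 7 with median-of-ratios scaling, 6 with quantile normalization and 5 without GsMTx4 3. With GsMTx4, 1 fell in the compared groups only. Cebpb, whose protein binds C/EBP motifs, averaged 9.14 ± 0.824 FPKM with GsMTx4, 33.4 ± 7.43 FPKM with DSS and 11.8 ± 1.92 FPKM in Control. It rose by 1.41 ± 0.19 (adjusted p = 0.00243) and fell by 1.74 ± 0.19 (adjusted p = 0.00183), with no overlap between DSS and either other group. With GsMTx4, Cebpd fell by 0.75 ± 0.15 (adjusted p = 0.0139), while DSS against Control gave 0.48 ± 0.15 (adjusted p = 0.0513). Socs3, which STAT3 switches on and which dampens it, averaged 59.8 ± 36.6, 97.2 ± 14.0 and 11.5 ± 0.343 FPKM in GsMTx4, DSS and Control. It rose in DSS by 2.97 ± 0.48 (adjusted p = 0.00531), and GsMTx4 against DSS gave -0.96 ± 0.48 (adjusted p = 0.217). The lipopolysaccharide receptor Tlr4, which is on both this list and that of receptors below, rose by 1.23 ± 0.33 in DSS (adjusted p = 0.0357), and the gene that fell was Atoh1, given above. Of 9 tested receptors reported for the secreted proteins, of 10 listed, 3 rose in DSS and 1 fell with GsMTx4. The formyl peptide receptor Fpr1, found on neutrophils, did both, with 1.54 ± 0.30 (adjusted p = 0.0104) and -1.14 ± 0.30 (adjusted p = 0.03999), and its relative Fpr2 rose by 1.82 ± 0.43 in DSS (adjusted p = 0.0226). The 3 were 1 without Control 1, Control 3 or DSS 2, with no filter or at a mean FPKM of 5. The 1 was 2 with median-of-ratios scaling or quantile normalization, 1 without DSS 1, without GsMTx4 1 and with no trend of the spread, and 0 in the other alternatives.

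**Figure D4:**
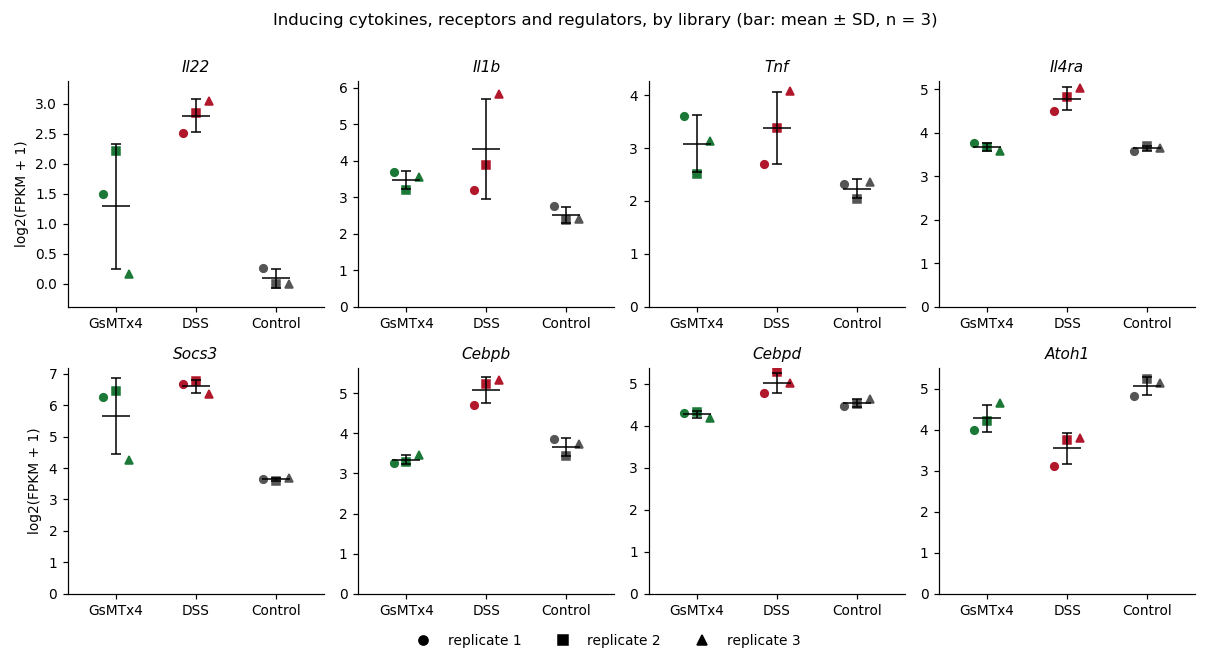
Levels of 8 cytokine, receptor and regulator genes as log2(FPKM + 1) in every GsMTx4, DSS and Control library, with group means and SD (n = 3 each). Il4ra, Cebpb, Cebpd and Il22 are higher in all 3 DSS libraries than in any other, and Atoh1 is lower in all 3. Il22 and Socs3 are lower in GsMTx4 3 than in the other GsMTx4 libraries.

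For each of the 10 genes the pair of tested genes with the most similar profile was found by Pearson's r of log2(FPKM + 1) over the 9 libraries, a description in which libraries of a group share their treatment. Reg4 was most like Hes6 (r = 0.993) and Eci1 (0.981). Dmbt1 was most like the mucin gene Muc13 (0.985) and Lbp (0.981), which encodes a protein binding bacterial lipopolysaccharide. Saa3 was most like Nucb2 (0.988) and Slc2a6 (0.985), Lcn2 like Tgm2 (0.9798) and Serpina3n (0.979), and Retnlb like Art2a-ps and Tiparp (both 0.982). Reg3b was most like Tpst1 (0.986) and Lhfp (0.985), and Reg3g like Lsp1 (0.985) and Alpl (0.9804). The values were lower for Saa1, with Krt23 (0.922) and Nat8f4 (0.921), for Ang4, with Phtf1 (0.947) and Ccl3 (0.945), and for Saa2, with Pdgfd (0.898) and Cd34 (0.891).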

How the data were processed

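Total RNA from mouse colon was sequenced in 9 libraries, grouped by sample title. The authors deposited 1 table of FPKM values. The submitters' processing notes name cutadapt, FastQC and GRCm38, and the sources used here do not name the aligner or quantifier. All columns were mapped by title, and 35196 of 35315 gene identifiers matched a symbol in GENCODE M21. FPKM is divided by length and library size, so a count test was not run: only 25.4% to 30.1% of low values were whole multiples of the step (tolerance 0.05 of a step).

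Genes with at least 1 FPKM in at least 3 of 9 libraries were tested on log2(FPKM + 1) with limma 3.58.1 (R 4.3.3), 1 mean per group over all libraries (6 residual degrees of freedom), trended empirical Bayes, two-sided. The fit was tested on simulated data. Alternatives were other pseudocounts, filters, scalings, error models and the replicate number as a block, and each library left out in turn with the same genes. The members and lists were chosen with earlier results of these data known. All 10 members are described whatever their p. From each list the text may name the 2 genes with the smallest p in each of the DSS comparisons, every passing gene where at most 5 passed, and Il22, Il6, Il17a, Il1b and Tnf. Replicate numbers were not taken to pair libraries, since no correlation of same-numbered deviations was over 0.1. Coding identity was computed with Biopython 1.88, and figures with matplotlib 3.10.9 in Python 3.11.15. Precision is limited by 3 libraries per group.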

Additional observations from a re-analysis of the deposited data

How the results depend on the processing

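Of 561 values of the 10 genes under 19 alternatives, 521 kept their direction and their side of the threshold, 22 lost the call, 8 gained it and 10, none of them called, changed sign. The cause was not tested. Ang4 changed sign in DSS against Control without Control 2 (0.024) and DSS 2 (0.0034; -1.86 to 0.024 over the left-out libraries) and in GsMTx4 against DSS without DSS 3 and GsMTx4 1 (0.21; -1.01 to 0.89). In GsMTx4 against DSS so did Saa1 without DSS 3 (-0.14 to 0.31) and Dmbt1 without GsMTx4 3 (-1.46 to 0.027). In GsMTx4 against Control so did Reg3b at a pseudocount of 0.01 (-0.086) and without GsMTx4 3 (-0.033 to 0.60), and Retnlb after TPM rescaling (-0.0057) and without GsMTx4 2 (-0.15 to 0.38).

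With 1 library left out, the number of the 10 genes called was 4 to 7 higher and 1 lower in DSS against Control, 0 to 1 higher and 3 to 5 lower in GsMTx4 against DSS, and 0 to 1 higher and 0 lower in GsMTx4 against Control. With the compared groups only, 0 of the 10 were higher in GsMTx4 against DSS, Reg4 having an adjusted p of 0.0515 there.

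Over all genes, leaving out 1 library gave 382 to 1094 higher and 581 to 2007 lower in DSS against Control, 393 to 1209 and 323 to 787 in GsMTx4 against DSS, and 12 to 70 and 1 to 13 in GsMTx4 against Control. Other moved counts in DSS against Control were 579 higher and 992 lower at a mean FPKM of 5 and 949 lower with median-of-ratios scaling. In GsMTx4 against DSS they were 590 higher and 483 lower with no filter, 495 lower at a mean FPKM of 5, and 327 higher and 260 lower in the compared groups only. In GsMTx4 against Control they were 2 lower at a pseudocount of 0.1, 3 higher and 1 lower at 0.01, 12 lower with no filter, 3 higher and 2 lower at a mean FPKM of 5, and 3 lower with median-of-ratios scaling and with quantile normalization. The replicate block gave 995 lower in DSS against Control and 553 higher and 525 lower in GsMTx4 against DSS. Same-numbered deviations correlated at -0.23 to 0.10. With the replicate block Reg3b passed in DSS against Control (adjusted p = 0.0480) and Reg3g did not in GsMTx4 against DSS (adjusted p = 0.0568). With it the other antimicrobial genes lower in DSS numbered 1, and in GsMTx4 against DSS 2 inducing cytokines or receptors, 0 reported receptors and 0 resistin-like genes (Retnlg) were lower and 1 signal or transcription factor gene was higher.

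Depth in reads is not known, and values under about 1 FPKM rest on few fragments. This touches Reg3b, Reg3g, Saa2 and Ang4 outside their highest libraries, and Lcn2 in Control 1 (0.599 FPKM).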
